A study of Glycine max with 6 samples.

Results

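The ABC transporters of soybean roots are described here, as all genes whose Nr description (the best protein matches that the authors listed for each gene) holds the words ABC transporter, a family letter from A to I and family member. The rule found 189 of the 48667 genes that the 6 libraries list together, among them 64 genes of subfamily G, 58 of subfamily B, 34 of subfamily C, 11 of F, 8 of A, 7 of I, 5 of D and 1 each of E and H. Roots of soybean (Glycine max) came from control plants in nutrient solution at pH 5.8 and from acid-treated plants in the same solution at pH 4.2, with 3 replicates each, after 30 days in hydroponic culture. Each replicate pooled the roots of 2 plants into 1 library. The paper names the genotype as Huachun 6 and the sample labels name it as YC03-3, and no allele or transgene is given for either pH. Because whole roots were sampled, fewer cells of a type and less RNA per cell cannot be told apart in any value below.

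ABC transporters are membrane proteins that use ATP to move substrates across a membrane. In plants they carry lipids for suberin and cutin, hormones, glutathione conjugates, metals bound to chelators, and defence compounds. A full-size transporter has a pair of ATP-binding domains and a pair of membrane domains on 1 chain, whereas a half-size one has a single set and works as a dimer. Subfamily B includes the auxin carriers, subfamily C the vacuolar carriers of conjugates, and subfamily G the exporters of barrier lipids and many hormones. Members of E and F are soluble and act at the ribosome, and those of I are mostly single domains that join a partner. The family numbers given below, such as ABCB21, are those in the descriptions. They follow the Arabidopsis inventory by sequence likeness, so a role known in Arabidopsis is background and was not measured in soybean. For 24 of the 189 members the family name stood in a later protein match and not in the first. Among these are Glyma.13G118800 (ABCB21), Glyma.07G081200 (ABCB1), Glyma.19G016400 (ABCB15) and Glyma.08G201300 (ABCG36). Glyma.14G127800 (ABCG39), Glyma.13G370300 (ABCC13) and the ABCE2 gene are others.

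Expression is given in CPM, the counts scaled to a common library size by the TMM method, when libraries are compared, and in FPKM, which also divides by gene length, when genes are compared. Log2 fold changes are given with their standard error (SE). The libraries held between 9137226 and 9358750 expected counts, and a count of 3, the lowest level told from 0 by counting alone, equals 0.312 to 0.340 CPM. On the first principal component of all tested genes, which held 42.9% of the variance, control replicate 2 lay at -11.5, next to acid replicate 1 at -23.1 and away from control replicates 1 and 3 at 60.1 and 103. Values without that library are therefore given where they change a call. It was singled out for lying near the acid-treated libraries, so leaving it out tends to widen the differences. Without it edgeR called 3.26% of all genes, against 0.558% with all libraries, so calls made without it are not separate evidence. Tissue markers were mixed, since 37 genes of light harvesting and Rubisco summed to between 1295 and 2354 FPKM per library, 2 leghemoglobin genes to between 109 and 188 FPKM, and 11 Casparian strip membrane protein genes to between 38.3 and 125 FPKM, with no gene of these lists at 0 in a whole group. All 3 sums overlapped between the pH-treatments, and their part in the results was not tested.

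Most ABC transporter genes were detected at both pH levels. Acid-treated libraries held 169, 170 and 169 members with at least 1 count, and control libraries 169, 176 and 176. The difference of -4.33 members was within the spread of the replicates (p = 0.4 in a two-sided exact permutation test, which cannot go below 0.1 in this design). With at least 10 counts, 128 ± 4.04 members were detected in acid-treated and 131 ± 3.51 in control roots (SD, n = 3; exact permutation test, p = 0.4). The filter on low counts kept 131 of the 189 members for testing, and the other 58 had a mean of at most 12.7 counts per library. Summed over all members, FPKM came to 993, 1265 and 1210 in control replicates 1 to 3 and to 1251, 1175 and 1238 in the acid-treated ones, which lay within the range of the controls.

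Acidity was accompanied by a called change in a single ABC transporter gene, a lower level of the ABCG39 gene Glyma.19G192900. Members beyond the 20 named by rule were chosen after their values had been seen. Of the 131 members tested with edgeR's quasi-likelihood test, it alone passed an adjusted p of 0.05 together with a 2-fold change, whereas 0.558% of all 33490 genes tested did so (0.331% lower and 0.227% higher). At an unadjusted p under 0.05, 12 members were lower and 4 higher, which is 16 of 131, and 11.8% of all genes tested passed that limit (4.21% higher and 7.61% lower). The acid-treated libraries lay wholly below the controls in 18 tested members and wholly above them in 6, where 16.4% of all genes tested showed no overlap in either direction (9.25% lower and 7.17% higher). The median log2 fold change of the tested members was -0.05, against 0.00 for all genes tested, and 87 of the 131 differed by less than 0.5 on the log2 scale. No member was called higher with edgeR. Without the low-count filter edgeR called 2 members, both lower, where it called 0.664% of all genes. DESeq2, also run without that filter, called 3 members, Glyma.19G192900 and the ABCB21 gene Glyma.13G118800 as lower and the ABCI17 gene Glyma.08G055000 as higher, where it called 2.18% of all genes. Without control replicate 2, edgeR called 6 members, 4 lower and 2 higher, where it called 3.26% of all genes.

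**Figure D1:**
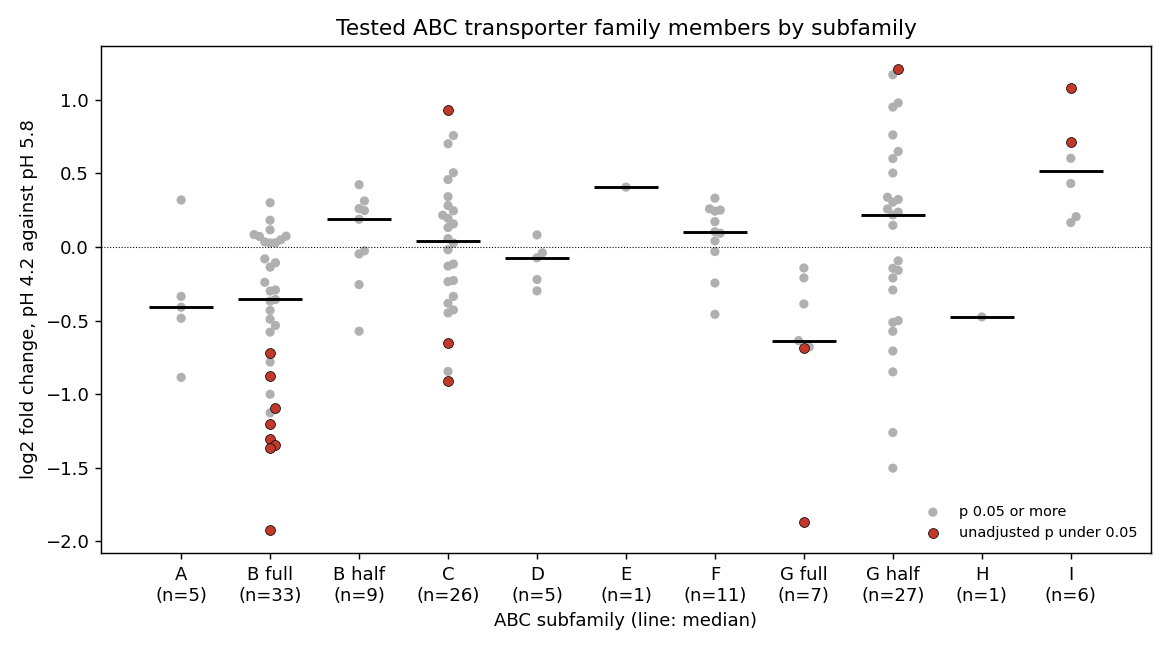
Log2 fold change (pH 4.2 against pH 5.8, edgeR) of each of the 131 tested ABC transporter genes by subfamily, with the numbers of full-size and half-size members of B and G apart. Horizontal lines are medians and red points have an unadjusted p under 0.05. The 8 red points of subfamily B are all below 0, where 7.61% of all genes tested were lower and 4.21% higher at that limit. The lowest point of full-size G is Glyma.19G192900 at -1.87.

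Subfamilies B, C and G had medians between -0.25 and 0.04. The median log2 fold change was -0.25 over 42 tested members of subfamily B, 0.04 over 26 of subfamily C and -0.14 over 34 of subfamily G. In subfamily B 27 members had a negative value and 8 of them an unadjusted p under 0.05, with no positive member at that limit. In subfamily C 12 were negative and 14 positive, with 2 and 1 at that limit, and in subfamily G 19 were negative and 15 positive, with 2 and 1. Of all genes tested, 7.61% were lower and 4.21% higher at that limit. The lower median of subfamily B rested on gene models predicted by the authors, which have no Glyma identifier, since all 8 of these that were tested had negative values (median -0.73), whereas the 34 tested Glyma genes of subfamily B had a median of -0.06. Most of the predicted genes match the same ABCB11 protein and had fractional counts, so they cannot be taken as separate measurements.

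Transcript totals overlapped or nearly so in B and C. Subfamily B summed to 209, 254 and 248 FPKM in control replicates 1 to 3 and to 211, 209 and 220 FPKM in acid-treated ones, and subfamily C to 175, 237 and 244 against 212, 202 and 227 FPKM. The acid-treated sums of both subfamilies lay within or just below the control range. The full-size members of B alone summed to 169.5, 194.6 and 196 FPKM in control and 157, 151 and 166.5 FPKM in acid-treated roots, with no overlap. These sums include predicted ABCB11 genes. All predicted genes of B held 35.9 FPKM in control replicate 1 and at most 17.2 FPKM in acid-treated libraries. The Glyma genes of B, of both sizes, summed to 173.5, 241.4 and 223.6 FPKM in control and 193.4, 196 and 207 FPKM in acid-treated roots, with overlap. Full-size Glyma genes were not summed apart. The half-size members of B summed to 39.9, 59.3 and 51.6 against 53.3, 57.6 and 53.3 FPKM, with overlap. In subfamily G, control replicates summed to 184, 295 and 283 FPKM and acid-treated ones to 265, 207 and 230 FPKM, again with overlap. Subfamily I, taken up after its values had been seen, differed, with 108, 129 and 130 FPKM in control and 233, 212 and 209 FPKM in acid-treated roots, which did not overlap.

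**Figure D2:**
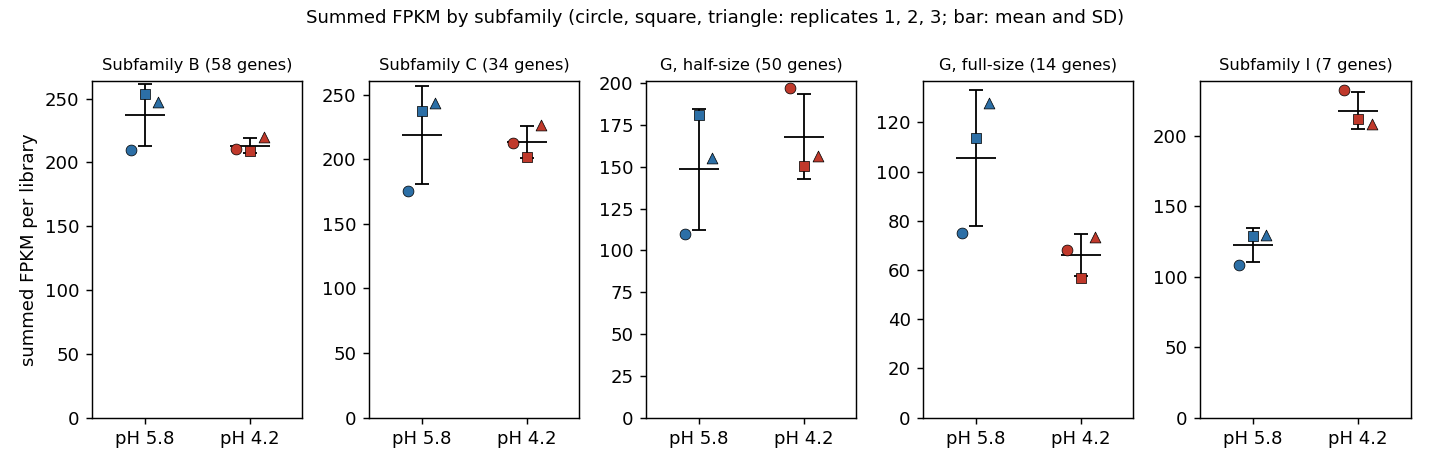
FPKM summed over the members of subfamilies B, C, G (half-size and full-size apart) and I in each of the 6 libraries, with the mean and SD of 3 replicates as bars. Control and acid-treated sums overlap for B, C and half-size G, while full-size G lies lower (56.8 to 73.6 against 74.9 to 128 FPKM) and I higher (209 to 233 against 108 to 130 FPKM) at pH 4.2.

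When subfamily G was divided by the Arabidopsis numbers into half-size (up to 28) and full-size members (above 28), a division made after the values had been seen, the groups pointed apart. All 7 full-size members tested had negative log2 fold changes, from -1.87 to -0.14 with a median of -0.64. Of the 27 half-size members tested, 15 were positive and 12 negative, with a median of 0.22. All 7 were negative under the other settings that tested all of them, except without acid replicate 1, where 6 were, and the 5 that reached a mean count of 50 were negative under that filter. Across all genes tested, 50.3% had a negative value. The 7 include the 3 ABCG36 genes, which had fractional counts in every library and cannot be taken as separate measurements. FPKM summed over the full-size members was 74.9, 114 and 128 in control and 68.1, 56.8 and 73.6 in acid-treated roots, so that control replicate 1 and acid replicate 3 were nearly level. Another 21 ABC genes carry older names such as pleiotropic drug resistance protein and stand outside the rule. Of these, 12 were tested, none was called, 5 were positive and 7 negative, and the median log2 fold change was -0.16, with a range from -1.89 to 2.11.

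The ABCG39 gene Glyma.19G192900 had the largest difference of the 7 tested full-size members. ABCG39 of Arabidopsis is a plasma membrane carrier known from uptake of the herbicide paraquat. Glyma.19G192900 was expressed at 42.7, 76.9 and 80.5 CPM in control replicates 1 to 3 and at 13.4, 20.2 and 21.2 CPM in acid-treated replicates 1 to 3. Even the lowest control library held more than the highest acid-treated one. From a mean of 66.7 ± 20.9 CPM in control roots it fell to 18.2 ± 4.24 CPM (SD, n = 3), which was 3.66-fold lower with a log2 fold change of -1.87 (SE 0.30, edgeR adjusted p = 0.0429). Its expected counts were whole numbers in all libraries, so RSEM split no reads between it and similar genes. The adjusted p was just under the threshold, and leaving out acid replicate 1, 2 or 3 or control replicate 3 gave 0.155, 0.236, 0.108 and 0.115 from edgeR, while the log2 fold change stayed between -2.11 and -1.69. With limma-trend on FPKM the adjusted p was 0.0684 and 0.0606, depending on the pseudocount. The other tested ABCG39 gene, Glyma.14G127800, was at 21.8, 25.7 and 19.6 CPM in control and 13.8, 20.6 and 26.4 CPM in acid-treated roots, which overlapped.

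The 3 ABCG36 genes made up most of the full-size G transcripts. ABCG36 of Arabidopsis exports the auxin precursor indole-3-butyric acid and acts in defence at the cell surface. The most abundant of them, Glyma.07G015800, was expressed at 33.6 FPKM in control and 21.2 FPKM in acid-treated roots. In CPM its control libraries held 114, 192 and 191 and its acid-treated libraries 114, 85.9 and 121, so that control replicate 1 lay within the acid-treated range. Only in Glyma.13G355000 did the groups not overlap. Log2 fold changes were -0.64 for Glyma.07G015800, -0.68 for Glyma.13G355000 and -0.39 for Glyma.08G201300, with adjusted p = 0.429, 0.452 and 0.637 from edgeR. RSEM gave fractional counts for all 3 in every library, so reads were split among them or with other genes. Their sum was 293, 439 and 499 CPM in control and 306, 226 and 310 CPM in acid-treated roots, with control replicate 1 again within the acid-treated range.

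A further full-size member, the ABCG32 gene Glyma.05G011900, belongs to the cutin exporters in Arabidopsis. It was low, at 5.75, 6.44 and 5.10 CPM in control and 3.40, 2.97 and 4.34 CPM in acid-treated roots, with no overlap. The log2 fold change was -0.69 (SE 0.29) and did not pass the test (adjusted p = 0.394 from edgeR).

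Transporters of suberin, cutin and wax were few, and apart from 1 ABCG11 gene their mean level was at most 2.03 FPKM. Suberin is the lipid polyester of endodermis and periderm walls, and ABCG2, ABCG6 and ABCG20 deliver its monomers in Arabidopsis. The list held 11 members, of which 5 were tested and none called by edgeR, and the log2 fold changes ranged from -0.69 to 1.17 with a median of -0.09. One gene carried most of the signal, the ABCG11 gene Glyma.13G043800, named for a half-size carrier of cuticular and suberin lipids. It was expressed at 31.3, 21.2 and 63.7 CPM in control and at 178, 60.0 and 23.4 CPM in acid-treated roots. Acid replicate 1 was high and acid replicate 3 low, so the acid-treated libraries overlapped the controls, and the log2 fold change of 1.17 had an SE of 0.68 (adjusted p = 0.571 from edgeR) and was 0.11 without acid replicate 1. By mean FPKM this gene was the 12th of the 189 members. Other ABCG11 genes, Glyma.16G209400, Glyma.09G160000 and Glyma.13G044000, stayed below 1 CPM in every library.

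The ABCG20 genes varied more between libraries than between pH-treatments. Glyma.03G175300 was at 0.977, 8.05 and 6.97 CPM in control and 8.72, 3.18 and 3.12 CPM in acid-treated roots. Glyma.19G176000 was at 0.977, 3.33 and 3.85 CPM and at 3.74, 1.38 and 1.56 CPM in the same libraries. In both genes control replicate 1 was the lowest of all 6 libraries and the acid-treated libraries lay within the range of the controls or just above it. The ABCG6 gene Glyma.20G242000 was likewise lowest in control replicate 1, at 1.52 CPM against 9.12 and 4.06 CPM in the other controls and 8.60, 4.56 and 5.01 CPM in acid-treated roots. The sum of the Casparian strip membrane protein genes was also lowest in that library, at 38.3 FPKM against 122 and 85.0 FPKM in the other controls, and whether the endodermis content of the library bears on these values was not tested. Among 36 genes of suberin synthesis, 18 were tested, none was called and none had an unadjusted p under 0.05, with a median log2 fold change of -0.10.

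**Figure D3:**
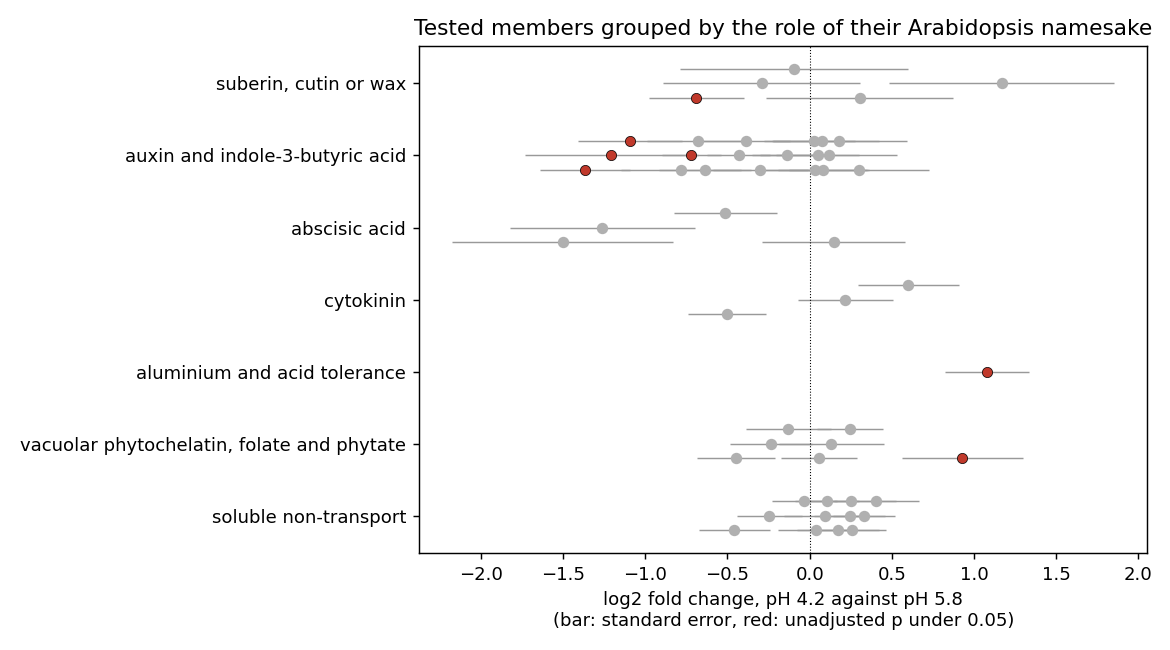
Log2 fold change (pH 4.2 against pH 5.8) with its standard error for the tested members, grouped by the role of the Arabidopsis gene of the same number. Red points have an unadjusted p under 0.05. Of the 19 auxin-related genes 4 are red and negative, where 7.61% of all genes tested were lower at that limit. The 1 gene on the list labelled aluminium and acid tolerance is at 1.08, and the soluble members stay between -0.46 and 0.41.

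No auxin-related member passed the edgeR test with all libraries, while DESeq2, and edgeR without the low-count filter (adjusted p = 0.0403), called the ABCB21 gene Glyma.13G118800 as lower. The list of auxin and indole-3-butyric acid carriers held 21 members, and among the 19 tested 11 were negative and 8 positive (median -0.30), with 4 negative and no positive one at an unadjusted p under 0.05. Of all genes tested, 7.61% were lower and 4.21% higher at that limit. The 4 include Glyma.13G118800 and Glyma.13G118900, which had fractional counts in all 6 libraries and so cannot be taken as separate measurements. Summed FPKM of the list was 164, 240 and 231 in control and 168, 159 and 188 in acid-treated roots, so that control replicate 1 was level with the acid-treated libraries. Among 15 genes of the other auxin carriers, the efflux carrier components and auxin transporter-like proteins, 14 were tested and none called, 10 being negative, with a median log2 fold change of -0.28.

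Within that list the ABCB21 genes stood lowest. ABCB21 is an auxin carrier of Arabidopsis that can work in both directions. Glyma.13G118800 was expressed at 42.3, 25.9 and 54.1 CPM in control and at 16.2, 15.8 and 15.4 CPM in acid-treated roots. Its neighbour Glyma.13G118900 was at 27.1, 19.3 and 45.6 CPM and at 16.5, 14.4 and 12.2 CPM. In neither gene did the groups overlap, and control replicate 2 came nearest to the acid-treated libraries. Log2 fold changes were -1.37 (SE 0.27, edgeR adjusted p = 0.0873) for Glyma.13G118800 and -1.09 (SE 0.32, edgeR adjusted p = 0.204) for Glyma.13G118900. Reads were shared between these genes or with others, since both had fractional counts in all 6 libraries. Their sum was 69.1, 45.0 and 99.2 CPM in control against 32.5, 30.1 and 27.5 CPM in acid-treated roots, that is 71.1 ± 27.2 and 30.1 ± 2.52 CPM (SD, n = 3), a control mean 2.37 times the acid-treated one.

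The pair belongs to a run of 3 adjacent ABC genes. In the RefSeq annotation of the assembly Glycine_max_v4.0 the proteins of Glyma.13G118800, Glyma.13G118900 and the ABCB11 gene Glyma.13G119000 come from consecutive protein-coding genes. Glyma.13G119000 was at 19.8, 5.15 and 42.6 CPM in control and 8.60, 6.16 and 3.01 CPM in acid-treated roots, where control replicate 2 fell within the acid-treated range. Its log2 fold change of -1.92 was the lowest of all members but had an SE of 0.68 (adjusted p = 0.303 from edgeR). Without control replicate 2 all 3 genes of the run were called, with log2 fold changes of -1.61, -1.33 and -2.39 (adjusted p = 0.00926, 0.0412 and 0.0390 from edgeR). Without control replicate 3, the highest library of all 3 genes, they were -1.10, -0.68 and -1.06 (adjusted p = 0.209, 0.508 and 0.822 from edgeR). With DESeq2 on all libraries, Glyma.13G118800 was called (log2 fold change -1.34, adjusted p = 0.00270) and its neighbours had adjusted p = 0.0896 and 0.0755. Another ABCB21 gene elsewhere, Glyma.10G137600, was at 1.09, 2.47 and 2.60 CPM and at 1.25, 0.849 and 0.556 CPM, with overlap (log2 fold change -1.21, SE 0.53).

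Among members matched to RefSeq, 10 runs with 22 members were adjacent in this sense. Other runs had values of 1 sign or of both. A second run of subfamily B, the genes Glyma.17G041200, Glyma.17G041300 and Glyma.17G041400 (ABCB11, ABCB4 and ABCB11), had log2 fold changes of -0.29 and 0.03 in its 2 tested genes. The adjacent ABCB15 genes Glyma.19G016600 and Glyma.19G016700 had log2 fold changes of -0.43, with no overlap, and 0.08. The adjacent ABCA2 and ABCA7 genes Glyma.06G191300 and Glyma.06G191400 were both negative, at -0.48 and -0.89, and the adjacent ABCC10 genes Glyma.10G227300 and Glyma.10G227400 both positive, at 0.28 and 0.76.

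The ABCB1 genes, named for an auxin exporter of the Arabidopsis plasma membrane, included a difference with little spread among replicates. Glyma.10G055000 was at 28.9, 30.3 and 36.1 CPM in control and at 18.8, 19.2 and 19.8 CPM in acid-treated roots, with no overlap. The log2 fold change was -0.72 (SE 0.18, edgeR adjusted p = 0.146), less than the 2-fold limit. Another ABCB1 gene, Glyma.07G081200, was at 3.47, 3.65 and 5.62 against 2.38, 1.91 and 3.12 CPM, again with no overlap. Its log2 fold change was -0.78 (SE 0.36, edgeR adjusted p = 0.460). In FPKM its groups overlapped, at 1.15, 1.14 and 1.86 in control and 0.96, 1.43 and 1.35 in acid-treated roots. Limma-trend on FPKM gave it a log2 fold change of -0.12 or -0.08, depending on the pseudocount. The more abundant ABCB1 genes overlapped, as Glyma.19G184300 with 33.2, 80.2 and 42.0 CPM in control and 42.3, 50.5 and 70.7 CPM in acid-treated roots, and the log2 fold changes of the 5 ABCB1 genes ranged from -0.78 to 0.07.

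Other auxin carriers of subfamily B had log2 fold changes between -0.43 and 0.30. ABCB19 exports auxin in the shoot and root of Arabidopsis, and both tested ABCB19 genes, Glyma.13G063700 and Glyma.19G021500, had log2 fold changes of 0.18 and 0.12, which turned to -0.17 and -0.22 without control replicate 3. They shared 1 pattern across the libraries, with control replicate 3 lowest at 26.3 and 31.9 CPM. The ABCB4 genes, named for a carrier of root hairs, had log2 fold changes of 0.03 each. The ABCB15 gene Glyma.19G016400 was the most abundant member of subfamily B, at 16.9 FPKM in control and 20.1 FPKM in acid-treated roots, and control replicate 1 alone held 29.5 CPM where the other controls held 92.6 and 92.7 CPM and the acid-treated libraries 118, 64.1 and 82.7 CPM. Its sign turned without control replicate 1, from a log2 fold change of 0.30 to -0.07. The lowest value of these carriers was that of the ABCB15 gene Glyma.19G016600, at 41.4, 37.1 and 50.9 CPM in control and 30.8, 31.1 and 34.1 CPM in acid-treated roots, with no overlap (SE 0.19, edgeR adjusted p = 0.429).

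Of the 8 members of subfamily B at an unadjusted p under 0.05, the other 3 were an ABCB2 gene and a pair of predicted ABCB11 genes. The ABCB2 gene Glyma.09G206300 was at 1.74, 3.00 and 1.77 CPM in control and 0.566, 0.849 and 1.11 CPM in acid-treated roots, with no overlap (log2 fold change -1.35, SE 0.47, edgeR adjusted p = 0.295). The predicted ABCB11 gene BGI_novel_G002187 was at 15.7, 10.9 and 13.4 CPM and at 2.72, 6.16 and 7.35 CPM, also with no overlap (log2 fold change -1.30, SE 0.36, edgeR adjusted p = 0.184). Another predicted ABCB11 gene, BGI_novel_G001123, was at 10.1, 4.18 and 6.25 CPM and at 4.30, 3.50 and 3.34 CPM, with overlap through control replicate 2 (log2 fold change -0.88, SE 0.37, edgeR adjusted p = 0.392). Most of the 12 predicted ABCB11 genes had fractional counts, and the sum of all 12 was 57.5, 26.97 and 49.4 CPM in control and 25.6, 23.2 and 25.6 CPM in acid-treated roots. Every control sum lay above the acid-treated ones, with control replicate 2 close to them.

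Half-size members of subfamily B, the mitochondrial and other organelle carriers, were mixed. The 33 tested full-size members of subfamily B had a median of -0.36, with 10 positive and 23 negative. The negative ones include the 8 tested predicted genes, which had fractional counts and cannot be taken as separate measurements. The 21 full-size members that reached a mean count of 50 had a median of -0.0977 under that filter, with 10 positive and 11 negative. The 9 tested half-size members had log2 fold changes from -0.57 to 0.42 with a median of 0.19, and none had an unadjusted p under 0.05. All 4 tested ABCB25 genes, named for the mitochondrial exporter that serves iron-sulfur protein assembly, had positive values from 0.19 to 0.42. The most abundant was Glyma.17G080400, at 23.1, 45.4 and 35.6 CPM in control and 52.3, 45.4 and 41.9 CPM in acid-treated roots, with overlap.

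Abscisic acid and cytokinin transporters had no call from edgeR or DESeq2. The abscisic acid list held 8 members, 4 of them tested, with a median log2 fold change of -0.89. Of the 4, 3 were negative and 1 positive, and the groups overlapped in each. The ABCG25 genes, named for an abscisic acid exporter of Arabidopsis vascular tissue, were highest in control replicate 2. Glyma.20G174800 was at 3.47, 21.5 and 9.99 CPM in control and 4.30, 4.35 and 5.90 CPM in acid-treated roots, so that control replicate 1 was the lowest library of all (log2 fold change -1.26, SE 0.56, edgeR adjusted p = 0.432, and -0.47 without control replicate 2). Glyma.10G217300 was at 9.44, 22.9 and 17.4 CPM and at 11.2, 11.04 and 12.6 CPM. The ABCG22 gene Glyma.10G086800 had -1.50 (SE 0.67, edgeR adjusted p = 0.435) at no more than 2.39 CPM, and -2.50 without acid replicate 1. The other tested ABCG22 gene, Glyma.02G188300, had 0.15 at no more than 1.82 CPM.

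ABCG14 loads cytokinin into the xylem of Arabidopsis roots, and its 3 tested soybean namesakes had values on both sides of 0. Glyma.11G090200, the most abundant gene of subfamily G at 40.6 FPKM in control and 28.2 FPKM in acid-treated roots, was at 78.2, 116 and 98.0 CPM against 75.6, 55.2 and 75.6 CPM, with a narrow gap between the groups. Glyma.16G076900 was at 4.78, 7.51 and 8.54 CPM in control and at 13.8, 9.23 and 8.57 CPM in acid-treated roots, with the gap on the other side. Log2 fold changes were -0.50 and 0.60 (SE 0.24 and 0.31, edgeR adjusted p = 0.469 and 0.510), and the difference between the genes was not tested. The other gene, Glyma.01G154400, overlapped between the groups, with a log2 fold change of 0.22.

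Higher values in subfamily G were found among half-size genes. Glyma.10G229800, described as ABCG8, was at 3.04, 11.7 and 5.52 CPM in control and 12.3, 15.7 and 18.8 CPM in acid-treated roots, with no overlap. The log2 fold change of 1.21 (SE 0.44, edgeR adjusted p = 0.315) was the highest of all members, and without control replicate 2 it was 1.87 and called (adjusted p = 0.0312 from edgeR), whereas without control replicate 1 it was 0.86 (adjusted p = 0.408 from edgeR). The ABCG5 genes, chosen after their values had been seen, summed to 17.3, 50.7 and 36.3 CPM in control and 55.7, 57.9 and 66.8 CPM in acid-treated roots. All 3 tested ABCG5 genes had positive log2 fold changes, from 0.50 to 0.98, and the smallest adjusted p was 0.506 from edgeR.

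**Figure D4:**
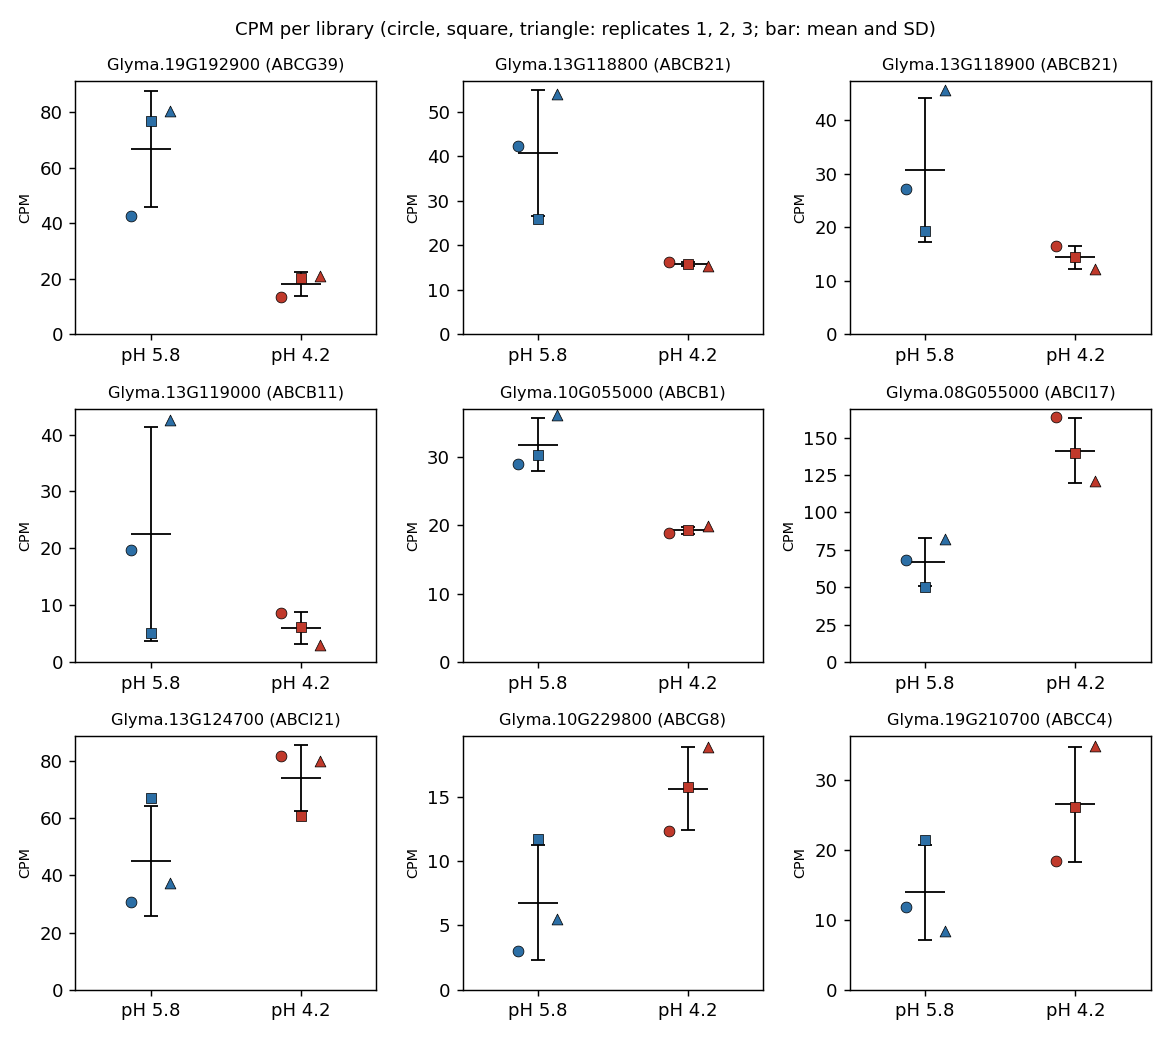
CPM of 9 members in each library, control (pH 5.8, blue) and acid-treated (pH 4.2, red), with the mean and SD of 3 replicates. The groups do not overlap in Glyma.19G192900, Glyma.13G118800, Glyma.13G118900, Glyma.10G055000, Glyma.08G055000 and Glyma.10G229800, and the square of control replicate 2 reaches the acid-treated range in Glyma.13G119000, Glyma.13G124700 and Glyma.19G210700.

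The ABCI17 gene Glyma.08G055000 had the lowest adjusted p from edgeR among members with higher values at pH 4.2. ABCI17 of Arabidopsis, also called STAR1, is an ATP-binding subunit that joins a membrane partner, and mutants that lack it are sensitive to aluminium, which is soluble in acid soils. Glyma.08G055000 was the first of 189 members by mean FPKM over all 6 libraries, although at pH 5.8 the ABCF1 gene Glyma.11G194700 was higher with 68.7 FPKM. It was at 58.3 ± 14.6 FPKM in control and 122 ± 16.6 FPKM in acid-treated roots (SD, n = 3). In CPM it was at 68.5, 50.1 and 82.3 in control replicates 1 to 3 and at 164, 140 and 121 in acid-treated ones, a mean of 67.0 ± 16.2 against 141 ± 21.5 CPM (SD, n = 3). All acid-treated libraries lay above all controls. The log2 fold change was 1.08 (SE 0.26) and did not pass the adjusted threshold (adjusted p = 0.131 from edgeR), whereas DESeq2 called it (log2 fold change 1.11, adjusted p = 0.00298). It stayed between 0.91 and 1.26 with each library left out in turn. It is the only gene found by its description for the list labelled aluminium and acid tolerance, and a role in acid tolerance was not measured. Aluminium is not among the components that the paper gives for the nutrient solution.

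All 6 tested genes of subfamily I had positive log2 fold changes, from 0.17 to 1.08 with a median of 0.52. All 6 were positive under the other settings that tested all of them, except without acid replicate 2 and without control replicate 3, where 5 were, and the 5 that reached a mean count of 50 were positive under that filter. Without Glyma.08G055000, the other 6 genes of the subfamily summed to 49.7, 85.7 and 57.1 FPKM in control and 95.3, 89.1 and 104 FPKM in acid-treated roots, where control replicate 2 nearly reached acid replicate 2. Glyma.13G124700, described as ABCI21 and chosen after its values had been seen, was at 30.8, 67.0 and 37.5 CPM in control and 81.6, 60.7 and 79.9 CPM in acid-treated roots, with overlap through control replicate 2 (log2 fold change 0.72, SE 0.31, edgeR adjusted p = 0.410). Without that library it was called, with an adjusted p = 0.0471 from edgeR. Leaving out control replicate 1 or 3 instead gave log2 fold changes of 0.50 and 0.60 (adjusted p = 0.533 and 0.804 from edgeR).

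Subfamily C held abundant genes that were level between the pH-treatments. The ABCC2 gene Glyma.13G220000, named for a vacuolar carrier of phytochelatins and glutathione conjugates, was the most abundant at 45.2 FPKM in control and 39.7 FPKM in acid-treated roots. Its CPM values of 178, 192 and 250 in control and 216, 154 and 196 in acid-treated roots overlapped. The ABCC4 gene Glyma.10G019000 followed at 37.8 and 40.5 FPKM, with 158, 236 and 297 CPM against 324, 205 and 228 CPM. Log2 fold changes were -0.13 and 0.13, and each changed sign when single libraries were left out.

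Differences in subfamily C lay in less abundant genes. The second ABCC4 gene, Glyma.19G210700, was at 11.8, 21.5 and 8.43 CPM in control and 18.5, 26.1 and 34.8 CPM in acid-treated roots, with overlap through control replicate 2 (log2 fold change 0.93, SE 0.37, edgeR adjusted p = 0.367). The ABCC13 gene Glyma.13G370300 was at 23.6, 22.95 and 18.3 CPM against 10.4, 14.9 and 15.9 CPM, with no overlap (log2 fold change -0.65, SE 0.23, edgeR adjusted p = 0.295). The ABCC10 gene Glyma.16G172600 was at 3.58, 4.83 and 4.996 CPM against 1.70, 3.40 and 2.003 CPM, also with no overlap (log2 fold change -0.91, SE 0.38, edgeR adjusted p = 0.387). The 5 ABCC10 genes ranged from -0.91 to 0.76, with Glyma.10G227400 wholly higher and Glyma.16G172600 and Glyma.16G172500 wholly lower in acid-treated roots. Over the list of vacuolar phytochelatin, folate and phytate carriers, 7 of 8 members were tested and none called, with a median of 0.06.

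The soluble members of E and F had no call. These 12 genes, among them ABCE2, named for a ribosome recycling factor, and the ABCF genes, were all tested, none had an unadjusted p under 0.05, and the log2 fold changes ranged from -0.46 to 0.41. Subfamily A had 5 tested genes with a median of -0.41 and the single gene of H a log2 fold change of -0.48, without a call. The acid-treated libraries lay wholly below the controls in 1 ABCF1 gene and in the gene of H, where 9.25% of all genes tested did so.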

How the data were processed

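Per the paper, reads were mapped to Williams82.a2.v1 with HISAT, transcripts were built with StringTie, and RSEM on Bowtie2 alignments gave the values (versions not given in the sources used here). The deposited files hold for each gene and library an expected count, not normalized, and an FPKM value, both as the authors made them. Genes missing from a library were set to 0. RSEM splits reads between similar genes, and 68 of the 189 members had fractional counts in at least 1 library.

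Rounded counts were tested with edgeR 4.0.16 in R 4.3.3 (filterByExpr, TMM, robust quasi-likelihood fit, Benjamini-Hochberg adjustment over all genes tested). A call needed an adjusted p under 0.05 and a 2-fold change. The SE is the absolute log2 fold change over the root of F, and positive values are higher at pH 4.2. The alternatives were DESeq2 1.42.0, which the authors used, limma-trend 3.58.1 on FPKM in log2 after adding 0.1 or 1 (which understates changes of low genes), RLE size factors, other low-count filters, no fold limit, the family name in the first protein match, the replicate block and each library left out in turn. Scripts were tested on simulated data. Exact tests used scipy 1.17.1.

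Members and lists were chosen with earlier results of these data known. Named by rule are called members, in B, C and G up to 4 members with the largest change in each direction at an unadjusted p under 0.05 and the 2 with the highest FPKM, and role-list members at that limit. Results of 1 role list are not reported here. For 155 members a RefSeq protein matched. RefSeq's assembly differs from the build, so coordinates are not given. Per the paper each library came from 2 plants, and the labels do not say whether replicates were grown apart. P-values therefore measure the spread between these libraries, which may share a hydroponic culture.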

Additional observations from a re-analysis of the deposited data

How the results depend on the processing

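The number of ABC transporter genes called, 1 with all libraries and the settings described above, was 2 without the filter on low counts (both lower), 3 with DESeq2 (1 higher and 2 lower) and 0 with limma-trend at either pseudocount. RLE size factors, a mean count of at least 50, the replicate block and no fold limit each gave 1. With each library left out in turn it ranged from 0 to 6 members, 0 to 2 of them higher and 0 to 4 lower, the 6 being without control replicate 2. The calls over all genes also moved with the setting. Their share was 0.558% with the settings described above, 0.664% without the low-count filter and 2.18% with DESeq2. It was 0.182% with the replicate block and 3.26% without control replicate 2. Shares for the other settings are not given here. The median log2 fold change of subfamily B was 0.0117 with a mean count of at least 50, -0.11 with limma-trend on log2(FPKM + 1) and, in an alternative chosen after seeing the data, -0.0644 without predicted genes. The first and last of these use fewer genes, and for the other the cause was not tested. With each library left out it stayed between -0.27 and -0.14 in subfamily B, and moved between -0.11 and 0.17 in C and between -0.16 and 0.0888 in G, so the sign of C and G depends on single libraries. Of the 20 members named by rule, 17 kept their direction under every alternative that gave them a value, and 4 had none at a mean count of at least 50. The exceptions were abundant genes with small differences, Glyma.19G016400 (-0.0708 to 0.54 with each library left out), Glyma.13G220000 (-0.23 to 0.0337) and Glyma.10G019000 (-0.0842 to 0.36). The difference in detected members, also repeated after seeing the data with each library left out, stayed between -6.67 and -3.17.

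The replicate numbers did not pair the libraries, since libraries with 1 number did not depart together from their groups (correlations of -0.135, -0.0543 and -0.373). With the replicate block 1 member, Glyma.19G192900, was called as before (edgeR adjusted p = 0.0495), where 0.182% of all genes tested were called. The block changed no other call among the members. Precision is limited by 3 libraries a group, and for members of a few counts by depth.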
